A study of Sus scrofa with 12 samples.

Results

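HK2, GPI, ALDOC, PDK1 and GYS1 encode enzymes that handle glucose after it has entered the cell: its phosphorylation, its way through glycolysis, the gate into mitochondrial oxidation and its storage as glycogen. The probe sets annotated with these symbols were taken, which gave 5 genes of the 12361 named on the array, each with 1 of its 27558 probe sets. The 5 genes were chosen by their lower log2 signals in paced than in control pigs on these same arrays, so their paced and control values are given as a description. Counts of limma calls over the whole array stand beside them, and they are no test of these genes. All 5 probe sets passed the filter on dim signals, which required a mean log2 signal of at least 3.0 over the arrays and left 20669 probe sets.

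The arrays measured total RNA of left ventricular muscle from female pigs that were 13 months old. Paced pigs had their atrioventricular node ablated by catheter, which separates the ventricular from the atrial rhythm, and carried a VDD pacemaker, a device that senses the atrium and stimulates the ventricle. Control pigs had a sham procedure. The labels speak of a lead on the right ventricular side of the septum and an atrial lead in all pigs, but whether sham pigs carried leads or a device is not certain, so paced minus control may or may not include the lead itself. After 6 months of observation, tissue was taken at the level of the papillary muscles from the free wall and from the septum, to compare how RNA differs between these regions. Control and paced arrays from each region thus made 4 groups, each of 3 arrays. The study enrolled 12 pigs, 6 per treatment, and paired tissues were taken, but the labels tie no array to an animal, so p-values measure only the spread between these arrays.

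As background, heart muscle takes up glucose through the transporters SLC2A1 and the insulin-sensitive SLC2A4, and a hexokinase traps it as glucose 6-phosphate. From there it either runs down glycolysis to pyruvate, whose entry into the mitochondrial oxidation pathway is blocked when a pyruvate dehydrogenase kinase phosphorylates the dehydrogenase, or it is turned into UDP-glucose and built into glycogen. All 5 genes also belong to the genes that hypoxia-inducible factors are known to switch on, and the adult heart burns mainly fatty acids at rest.

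The 8 tested markers of heart muscle cells had mean log2 signals of 10.6 to 12.5, far above the array medians of 4.31 to 4.45. Free wall paced array 2 stood apart on the first principal component, at -45.3 against -19.2 to 22.3 for the other arrays, and limma gave it the lowest array weight, 0.24, where the others had 0.63 to 1.68. The pair of control arrays numbered 1 stood apart on the second component, at 27.2 in the free wall and 24.3 in the septum, against -16.3 to 7.74. Where leaving out any 1 array moved a paced minus control difference by more than 1.5 times, the value without it is given beside it. Signals are log2 values and are compared only within a gene. In whole tissue, fewer cells of a type and less RNA per cell cannot be told apart.

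HK2 encodes hexokinase 2, the insulin-responsive enzyme that phosphorylates glucose in muscle. Its log2 signal was 5.12, 5.17 and 4.60 on free wall control arrays 1, 2 and 3, and 5.10, 4.39 and 4.34 on the free wall paced arrays. In the septum it was 5.70, 4.86 and 4.81 on the control arrays and 3.93, 5.07 and 4.28 on the paced arrays. One paced array in each region, array 1 in the free wall and array 2 in the septum, lay among the control arrays, while the other paced arrays lay below every control array of their region. The group means were 5.12 ± 0.50 (SD, n = 3) in the septum control group, 4.96 ± 0.32 in the free wall control group, 4.61 ± 0.43 in the free wall paced group and 4.43 ± 0.58 in the septum paced group, and each neighbour in that order overlapped. Paced minus control was -0.35 with a standard error (SE) of 0.33 in the free wall, a 1.28-fold lower mean, and -0.70 (SE 0.33) in the septum, a 1.62-fold lower mean. HK2 had the widest range of the 5 genes, from 3.93 on septum paced array 1 to 5.70 on septum control array 1. Its septum difference was -0.41 without septum control array 1 and -0.45 without septum paced array 1. In the free wall the difference was -0.54 without control array 3, -0.60 without paced array 1 and -0.22 without paced array 3, so that single arrays moved its size by more than 1.5 times in either region.

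GPI encodes glucose-6-phosphate isomerase, which turns glucose 6-phosphate into fructose 6-phosphate, the step after hexokinase. Its log2 signal was 9.26, 9.09 and 9.11 on the free wall control arrays and 8.59, 8.71 and 8.83 on the free wall paced arrays, which all lay below the lowest control array. In the septum the control arrays read 9.32, 9.18 and 9.37 and the paced arrays 9.37, 8.75 and 9.08, and here paced array 1 was as high as the highest control array. The mean was 9.29 ± 0.10 in the septum control group, 9.15 ± 0.09 in the free wall control group, 9.07 ± 0.31 in the septum paced group and 8.71 ± 0.12 in the free wall paced group (SD, n = 3 each). Every pair of neighbours overlapped, and the free wall paced group shared only its highest array with the range of the septum paced group. Paced minus control was -0.44 (SE 0.15), or 1.36-fold lower, in the free wall and -0.22 (SE 0.15), or 1.17-fold lower, in the septum. The septum difference was -0.38 without paced array 1 and -0.07 without paced array 2, whereas the free wall difference stayed between -0.50 and -0.38 with any 1 array left out.

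ALDOC encodes aldolase C, an isoform of the enzyme that splits fructose 1,6-bisphosphate. Its mean signal over all arrays was 4.23, below the median of every array, so it was among the dimmer genes. The free wall control arrays read 4.73, 4.38 and 4.38 and the free wall paced arrays 4.14, 4.40 and 4.12. Paced array 2, the array with the low weight, thus lay among the controls. In the septum the signal was 4.79, 4.08 and 4.49 on the control arrays and 3.65, 3.54 and 4.06 on the paced arrays, and the highest paced array lay just under the lowest control array. The means were 4.50 ± 0.20 in the free wall control group, 4.45 ± 0.36 in the septum control group, 4.22 ± 0.16 in the free wall paced group and 3.75 ± 0.27 in the septum paced group (SD, n = 3 each). The septum paced arrays lay below all 3 arrays of the free wall paced group, next above them, and the other neighbours overlapped. Paced minus control was -0.28 (SE 0.20) in the free wall, 1.21-fold lower, and -0.70 (SE 0.20) in the septum, 1.63-fold lower. Leaving out free wall control array 1 gave -0.16 in the free wall.

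PDK1 encodes pyruvate dehydrogenase kinase 1, which switches off the pyruvate dehydrogenase complex and so keeps pyruvate out of the citric acid cycle. Its log2 signal was 7.10, 6.96 and 6.93 on the free wall control arrays and 6.73, 6.54 and 6.97 on the free wall paced arrays. On the septum arrays it was 7.27, 7.02 and 6.59 in controls and 6.80, 6.83 and 6.42 in paced pigs. In both regions the groups overlapped: free wall paced array 3 lay above 2 of the control arrays, and septum control array 3 lay below 2 of the paced arrays. The means were 7.0 ± 0.09 and 6.75 ± 0.22 in the free wall control and paced groups and 6.96 ± 0.34 and 6.68 ± 0.23 in the septum control and paced groups (SD, n = 3 each), and neighbours in the order of the 4 means overlapped. Paced minus control was -0.25 (SE 0.18), 1.19-fold lower, in the free wall and -0.28 (SE 0.18), 1.21-fold lower, in the septum, the most alike pair of regional values among the 5 genes. The free wall value was -0.15 without paced array 2. The septum value was -0.12 without control array 1, -0.46 without control array 3 and -0.15 without paced array 3.

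GYS1 encodes the muscle form of glycogen synthase, which adds glucose units to the growing glycogen chain. Its log2 signal was 8.35, 7.99 and 7.85 on the free wall control arrays and 7.47, 7.68 and 7.57 on the free wall paced arrays, with no overlap. In the septum the control arrays read 8.57, 8.07 and 8.0 and the paced arrays 8.35, 7.94 and 7.98, and the groups overlapped. The order of the means was septum control at 8.21 ± 0.31, septum paced at 8.09 ± 0.23, free wall control at 8.06 ± 0.26 and free wall paced at 7.57 ± 0.11 (SD, n = 3 each). The 3 upper groups overlapped with their neighbours, and the free wall paced arrays were the 3 lowest of the 12. Paced minus control was -0.49 (SE 0.18) in the free wall, 1.4-fold lower, and -0.12 (SE 0.18) in the septum, 1.09-fold lower. The septum difference was 0.06, above 0, without control array 1, and lay between -0.25 (without paced array 1) and -0.05 (without paced array 2) when any other septum array was left out. The free wall difference was -0.35 without control array 1.

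**Figure D1:**
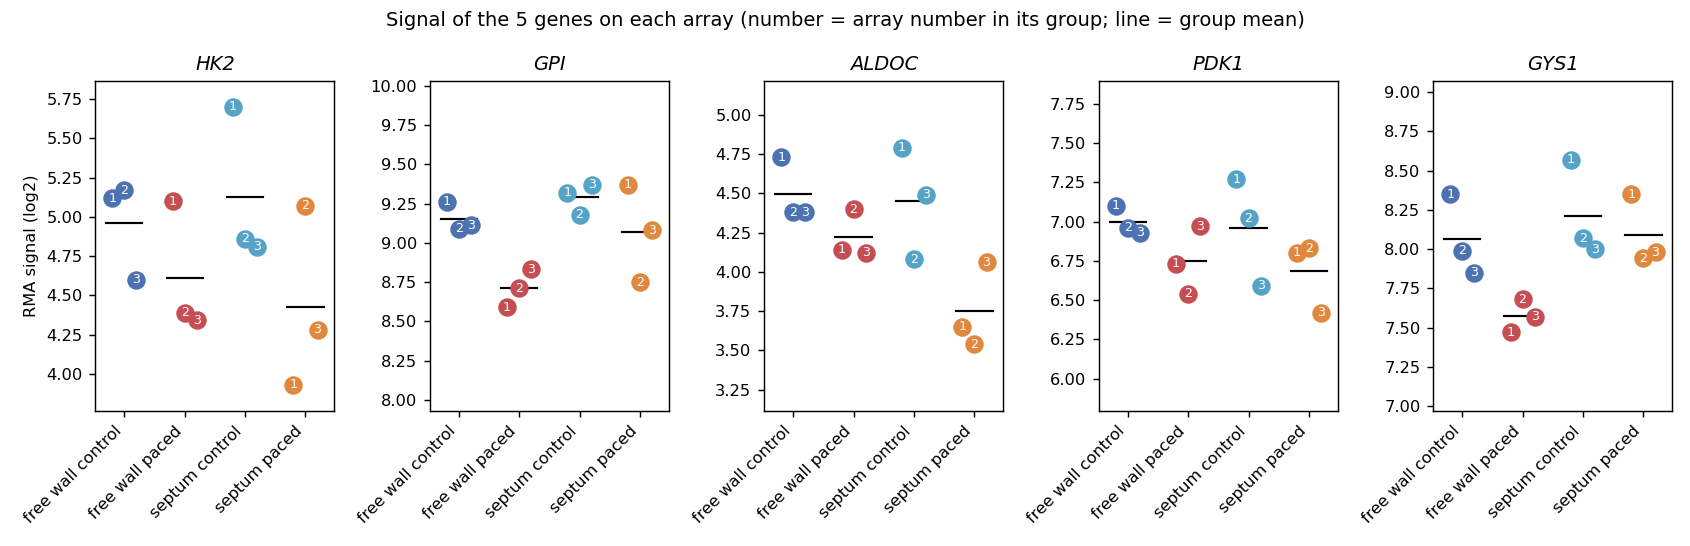
Log2 signal of each of the 5 genes on each of the 12 arrays, by group on the horizontal axis, with 3 arrays per group marked by their number and the group mean as a bar. The free wall paced arrays of GPI and GYS1 lie below the free wall control arrays, and the septum paced arrays of ALDOC lie below the septum control arrays.

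Set side by side, all 5 means were lower in paced pigs in both regions, with a median difference of -0.35 in the free wall and -0.28 in the septum. Over all probe sets tested, the median difference was 0.00 in both regions, and 49.5% of probe sets in the free wall and 50.3% in the septum were below 0. Both regional comparisons use different arrays, though pairs of arrays may come from 1 animal. The groups did not overlap for GPI and GYS1 in the free wall, which is 2 of 5 genes against 4.52% of all probe sets lower in that way, and for ALDOC in the septum, 1 of 5 against 4.78%. With limma and Benjamini-Hochberg adjustment at 0.05, the whole array had 1 call in the free wall (0.00484% of probe sets) and 2 in the septum (0.00968%), and 0 of them were among the 5 genes. Since these contrasts chose the genes, nothing is read from either count. Over the whole array, 942 (4.56%) and 963 (4.66%) probe sets had an unadjusted p under 0.05.

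In a further comparison each free wall array was averaged with the septum array that carried its treatment and number, which left 3 control and 3 paced values. The differences were then -0.53 (SE 0.19) for HK2, -0.33 (SE 0.10) for GPI, -0.49 (SE 0.14) for ALDOC, -0.26 (SE 0.12) for PDK1 and -0.31 (SE 0.14) for GYS1. All 5 differences were below 0, as were 51.1% over all probe sets. The differences do not depend on which arrays are averaged together, but the SEs do, and the paced arrays of 1 number did not deviate together, so these SEs hold only for this grouping. limma called 1 probe set of the whole array (0.00484%, with 5.55% at an unadjusted p under 0.05), which was none of the 5, and nothing is read from this.

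Among the controls, number 1 had the highest average of both regions for all 5 genes. Without both control arrays numbered 1, an alternative chosen after seeing the data, the averaged differences were -0.34 for HK2, -0.30 for GPI, -0.35 for ALDOC, -0.16 for PDK1 and -0.15 for GYS1. All 5 stayed below 0, and the values for HK2, PDK1 and GYS1 were smaller by more than 1.5 times. GPI moved least. In the free wall the differences without that array were -0.28, -0.39, -0.16, -0.20 and -0.35 in the same order of genes, and in the septum they were -0.41, -0.21, -0.54, -0.12 and 0.06.

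**Figure D2:**
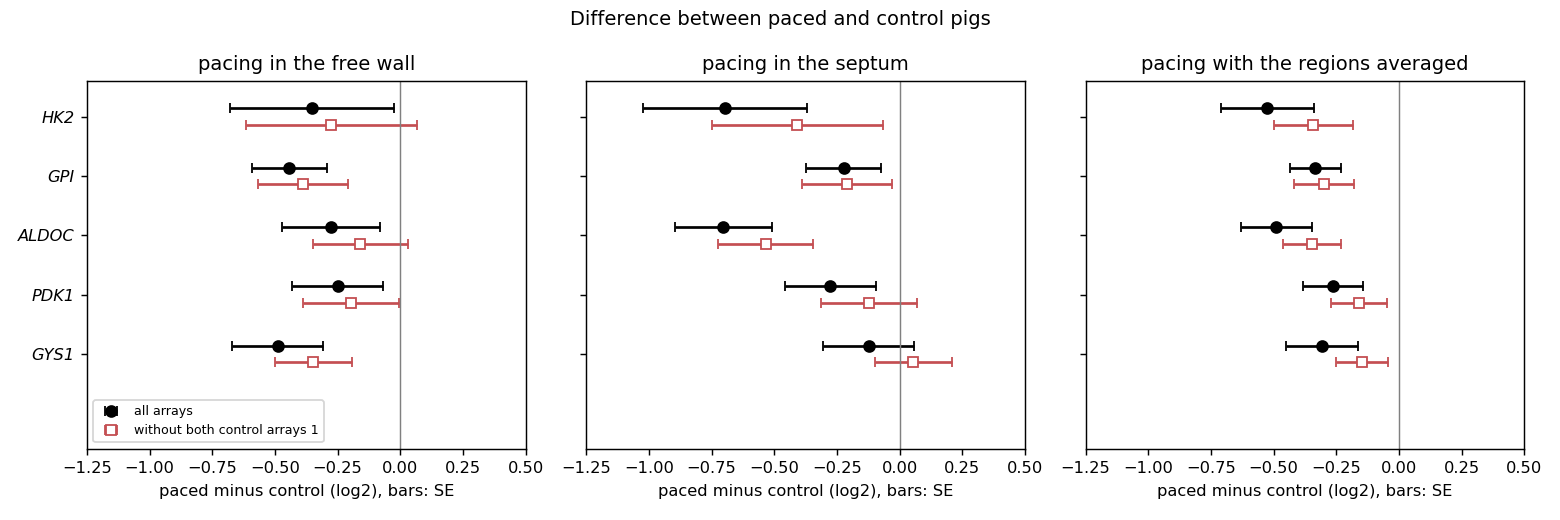
Paced minus control difference on the log2 scale (horizontal axis) with its SE for each gene, in the free wall, in the septum and with the regions averaged. Filled circles use all arrays and open squares leave out both control arrays numbered 1. All values lie below 0 except GYS1 in the septum, at 0.06 without those arrays.

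The same 2 control arrays also had low fibroblast marker signals. The mean over 7 fibroblast markers was 6.94 on free wall control array 1 and 7.01 on septum control array 1, and between 7.49 and 8.12 on the other 10 arrays. By group it ranged from 6.94 to 8.12 in free wall controls, 7.80 to 8.02 in free wall paced arrays, 7.01 to 8.12 in septum controls and 7.76 to 7.99 in septum paced arrays. Macrophage markers moved with the free wall comparison: the mean over 8 markers was 5.30 to 5.46 in controls and 4.75 to 5.16 in paced arrays, and all 8 of 8 were below 0, with 0 called by limma and 2 at an unadjusted p under 0.05. In the septum this mean was 4.97 to 5.45 in controls and 5.09 to 5.21 in paced arrays, with 5 of 8 below 0. Array signals have no true zero, and the dimmest macrophage marker had a mean of 3.01, just above the filter. Signs were also uneven in other lists. Fibroblast markers were above 0 in 6 of 7 cases in the free wall and 7 of 7 in the septum, and conduction system markers in 4 of 4 and 2 of 4. The free wall means of these lists lean on control array 1, and so do the fibroblast values in the septum. On free wall control arrays 2 and 3 the fibroblast mean was 8.12 and 7.94, against 7.80 to 8.02 on the paced arrays. On septum control arrays 2 and 3 it was 8.12 and 7.49, against 7.76 to 7.99 on the paced arrays. Without septum control array 1 the septum differences of COL1A1, COL1A2 and COL3A1 turned below 0. The free wall conduction mean was 4.79 on control array 1, 5.08 and 5.55 on control arrays 2 and 3, and 5.18 to 5.32 on the paced arrays. Smooth muscle and pericyte markers were above 0 in 6 of 6 and 4 of 6, with list means of 6.01 to 6.32 in free wall controls, 6.27 to 6.52 in free wall paced arrays, 5.91 to 6.30 in septum controls and 6.28 to 6.66 in septum paced arrays. The lowest control value in each region was again that of control array 1, while control arrays 2 and 3 both read 6.32 in the free wall and 6.30 in the septum. limma called 0 of the genes in these 3 lists, and at an unadjusted p under 0.05 there was 1 fibroblast marker in each region and 1 smooth muscle marker in the septum. The part of these cell types in the values of HK2, GPI, ALDOC, PDK1 and GYS1 was not tested. Heart muscle markers had 2 of 8 below 0 in the free wall and 4 of 8 in the septum.

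The regions were then compared within each treatment. In control pigs, septum minus free wall was 0.16 (SE 0.33) for HK2, 0.14 (SE 0.15) for GPI, -0.04 (SE 0.20) for ALDOC, -0.04 (SE 0.18) for PDK1 and 0.15 (SE 0.18) for GYS1. All 5 pairs of groups overlapped, where 5.77% of all probe sets were lower and 7.33% higher in the septum without overlap. Taken within arrays of 1 number, which deviated together in control pigs, the septum value was higher in all 3 pairs for GPI, by 0.06, 0.09 and 0.26, and for GYS1, by 0.22, 0.08 and 0.15. The pairs differed in sign for HK2 (0.58, -0.31 and 0.21), ALDOC (0.06, -0.30 and 0.11) and PDK1 (0.17, 0.06 and -0.34). How many of all probe sets had the same sign in all 3 pairs was not counted, so nothing is read from these signs. With the number as a block the SE was 0.16 for GPI and 0.14 for GYS1. This block also took its spread from the paced arrays of 1 number, which did not deviate together, so these SEs do not measure the control pairs alone. With any 1 array left out the difference lay between 0.10 and 0.19 for GPI and between -0.03 and 0.29 for GYS1, and it also took either sign for HK2, ALDOC and PDK1. limma called 0 of all probe sets (0.00%), with 758 (3.67%) at an unadjusted p under 0.05.

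In paced pigs the genes went in different directions. GYS1 was 0.52 higher in the septum (SE 0.18), 1.43-fold, and every septum array lay above every free wall array. GPI was 0.36 higher (SE 0.15), 1.28-fold, with overlapping groups, since septum array 2 at 8.75 lay within the free wall range, and the difference was 0.21 without septum array 1. ALDOC was 0.47 lower in the septum (log2 difference -0.47, SE 0.20), and the groups did not overlap. HK2 and PDK1 differed by -0.18 (SE 0.33) and -0.06 (SE 0.18), with overlap, and took either sign when 1 array was left out. Over the same omissions GYS1 stayed between 0.39 and 0.59 and ALDOC between -0.63 and -0.37. Lower without overlap was found for 3.47% of all probe sets in this comparison and higher without overlap for 6.44%. Low values on these same paced arrays chose the genes, so the values between the paced regions are a description, and nothing is read from the overlaps. limma called 0 of all probe sets (0.00%), with 1391 (6.73%) at an unadjusted p under 0.05.

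How far the paced minus control values differed between the regions is the septum difference minus the free wall difference. It was 0.37 (SE 0.26) for GYS1, 0.22 (SE 0.21) for GPI, -0.43 (SE 0.28) for ALDOC, -0.34 (SE 0.46) for HK2 and -0.03 (SE 0.26) for PDK1. Since both regional differences chose the genes, these values are a description, and neither a regional difference in the effect nor a like effect was shown. With any 1 array left out they lay between 0.22 and 0.55 for GYS1, 0.07 and 0.38 for GPI, -0.61 and -0.26 for ALDOC, -0.67 and -0.06 for HK2, and -0.21 and 0.13 for PDK1. limma called 0 of all probe sets (0.00%) for this difference, with 569 (2.75%) at an unadjusted p under 0.05.

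The 5 genes did not vary as a block from array to array. GPI and GYS1 went together most closely, with a Pearson correlation of 0.83 and a Spearman correlation of 0.86 over the 12 arrays, 0.56 after each group's mean was taken off, and 0.83 over the 10 arrays without control number 1. HK2 and PDK1 had a Pearson correlation of 0.59, which was 0.41 within groups and 0.30 without control number 1. PDK1 and GYS1 had 0.49, and 0.05 without control number 1. HK2 and GPI had 0.04 over the 12 arrays and -0.61 within groups. Septum paced array 1 shows this: it had the lowest HK2 signal of all arrays, at 3.93, beside a GPI signal of 9.37, which no array exceeded, and the highest GYS1 signal of its group, at 8.35. Septum paced array 2 was the other way round, with the highest HK2 and lowest GPI of its group. These correlations describe arrays that share treatment groups and may share animals.

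**Figure D3:**
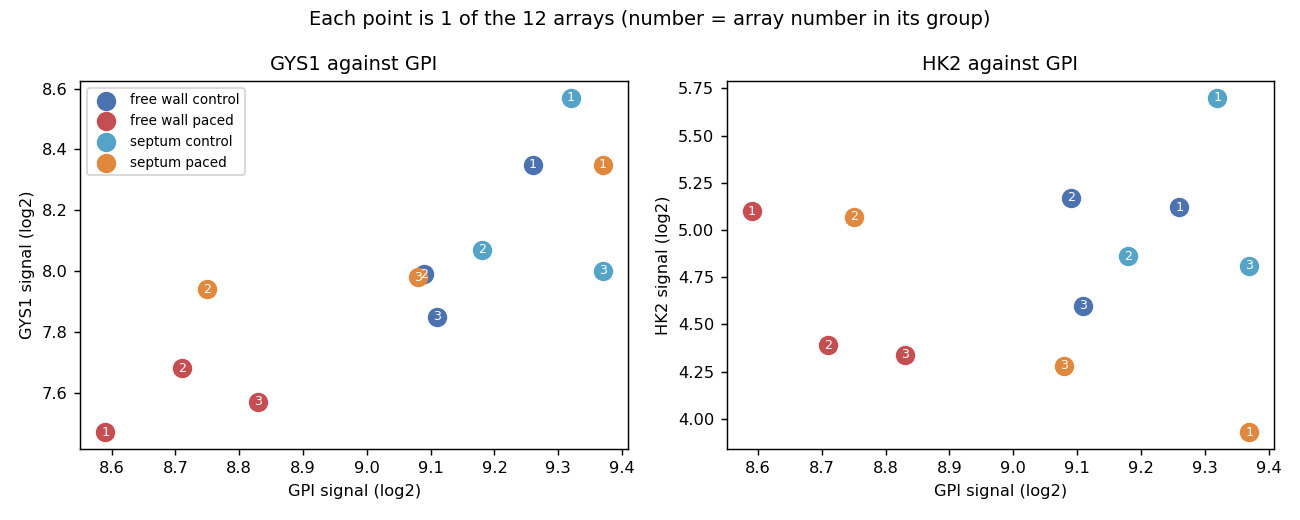
Log2 signal of GPI (horizontal axis) against GYS1 and against HK2 (vertical axes) on the 12 arrays, coloured by group. GPI and GYS1 line up across the arrays, with a Pearson correlation of 0.83, whereas GPI and HK2 do not, at 0.04.

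For each gene the named genes with the highest Pearson correlation over the 12 arrays, out of 10187 candidates, were listed. HK2 was most like RAB32 (0.92) and INSR (0.90), the insulin receptor, followed by RHOQ, ITGAV and GABARAPL1. The likeness of HK2 and INSR was 0.86 within groups and 0.83 without control number 1. GPI was most like AAR2 (0.93), CYTH4 (0.92), C14H10orf71 (0.92), RAE1 and BLCAP. ALDOC had the loosest likenesses, led by GTPBP2 (0.86) and PPAT (0.85), then PRR35, PLPBP and FLRT2. PDK1 was most like LACTB (0.94) and BACH1 (0.90), then VPS37A, CYLD and VEGFD. GYS1 was most like NDRG4 (0.94) and ZDHHC9 (0.92), then HMOX2, RILPL1 and ACSS1. None of the 5 genes was among the closest of another. These likenesses are the highest of many over few arrays, and a link between the genes was not tested.

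The other genes of glucose handling were counted from 9 lists, which held 102 tested genes besides the 5. limma called 0 of 102 in either direction for pacing in the free wall and in the septum; at an unadjusted p under 0.05 there were 7 lower and 0 higher in the free wall, and 3 lower and 0 higher in the septum. The differences were below 0 for 60 of 102 in the free wall (58.8%) and 65 of 102 in the septum (63.7%), with medians of -0.05 in both. The medians of the 5 genes, which were picked for low values, were -0.35 and -0.28.

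Around HK2, the other transporters and hexokinases were below 0 in 3 of 4 cases in the free wall and 4 of 4 in the septum. SLC2A4, the insulin-responsive transporter, differed by -0.36 (SE 0.21) and -0.37 (SE 0.21) in the free wall and septum, and HK1, the hexokinase of most tissues, by -0.19 (SE 0.19) and -0.38 (SE 0.19). Neither passed the test in limma, with adjusted p = 0.998 in the free wall and 0.992 in the septum for both. SLC2A4 was highest on the 2 control arrays numbered 1, at 8.10 and 8.09, and between 7.05 and 7.69 on the others, and without the control array numbered 1 its differences were -0.10 in the free wall and -0.22 in the septum. HK1 was 0.02 in the free wall without paced array 3 and -0.31 without paced array 2. Leaving arrays out for these pathway genes was added after seeing the data. SLC2A1 was not analysed here.

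Around GPI and ALDOC, the other glycolytic genes did not share their sign: 4 of 12 were below 0 in the free wall, with a median of 0.01, and 7 of 12 in the septum, with a median of -0.02. PFKFB2, which makes an activator of phosphofructokinase in heart, differed by -0.31 (SE 0.15) in the free wall. LDHA, which turns pyruvate into lactate, differed by 0.27 (SE 0.19) there, and by 0.15 without paced array 1. PFKM, ALDOA and LDHB were not analysed here.

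Around PDK1, the pyruvate dehydrogenase subunits and regulators were below 0 in 3 of 8 cases in the free wall and 5 of 8 in the septum. PDK3, another kinase of the complex, differed by -0.29 (SE 0.13) in the free wall without overlap, with values of 7.05, 7.12 and 7.14 in controls and 6.99, 6.70 and 6.76 in paced pigs. Its limma adjusted p was 0.998. PDK4, the kinase that fasting and fatty acids induce, differed by -0.54 (SE 0.37) in the septum, with overlap and a limma adjusted p of 0.992, and by -0.29 without control array 2. PDK2 was not analysed here.

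Around GYS1, the other glycogen synthesis genes stood at 5 of 13 below 0 in the free wall, with a median of 0.04, and 9 of 13 in the septum, with a median of -0.07. GYG1, glycogenin, the primer on which glycogen synthase builds, went the opposite way to GYS1 in the free wall: it differed by 0.34 (SE 0.16), with 7.98, 8.37 and 8.35 in controls and 8.78, 8.56 and 8.38 in paced pigs, which do not overlap (3.63% of all probe sets were higher in that way). Its limma adjusted p was 0.998, and the difference was 0.21 without control array 1. UGP2, which makes UDP-glucose, and GBE1, the branching enzyme, differed by less than their SEs in the free wall, -0.09 (SE 0.12) and 0.03 (SE 0.11). Without single arrays they ranged from -0.16 to -0.04 for UGP2 and from -0.01 to 0.07 for GBE1. Glycogen breakdown genes were below 0 in 4 of 9 cases in each region. PYGM, muscle glycogen phosphorylase, had the same regional order as GYS1 in paced pigs: it was 0.41 higher in the septum than in the free wall (SE 0.12), with 10.14, 9.73 and 9.91 against 9.51, 9.60 and 9.44. Its limma adjusted p was 0.551. In control pigs PYGM was 0.25 higher in the septum (SE 0.12), again without overlap, with a limma adjusted p of 0.997.

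Among genes of insulin signalling and the transcriptional control of glucose use, 18 of 22 were below 0 in the free wall, with a median of -0.14, and 14 of 22 in the septum, with a median of -0.04. PPARA, the receptor that drives fatty acid oxidation genes, differed by -0.53 (SE 0.22) in the free wall and -0.39 (SE 0.22) in the septum, with no overlap in either. Without free wall paced array 2, the array with the low weight, the free wall value was -0.27, and without septum control array 1 the septum value was -0.22. PRKAG2, a regulatory subunit of AMP-activated kinase, differed by -0.68 (SE 0.29) in the free wall, with its lowest value, 5.32, on paced array 2, and by -0.36 without that array. INSR differed by -0.53 (SE 0.22) in the septum, and by -0.30 without control array 1. FOXO1, a transcription factor that insulin holds out of the nucleus, differed by -0.40 (SE 0.18) in the free wall, or -0.26 without paced array 1, and was 0.65 higher in septum than free wall of paced pigs (SE 0.18). FOXO1 was dim in the free wall, at 3.17 to 3.99, below the array medians. In limma none passed: the adjusted p was 0.998 for the free wall values, 0.992 for the septum values and 0.478 for FOXO1 between the paced regions.

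The targets and regulators of hypoxia-inducible factors other than the 5 genes were below 0 in 15 of 27 cases in the free wall and 18 of 27 in the septum, with medians of -0.02 and -0.05. The lowest p in the free wall belonged to ADM, the vessel-widening peptide adrenomedullin, at -0.29 (SE 0.11), and to LOX, the collagen cross-linking enzyme, at -0.65 (SE 0.26), both without overlap. ADM was dim, at 3.22 to 3.75 over the arrays, not far above the filter. ANGPTL4, an inhibitor of lipoprotein lipase, differed by -0.47 (SE 0.21) in the free wall and -0.37 (SE 0.21) in the septum, with a free wall value of -0.71 without control array 1 and -0.28 without control array 2. Their adjusted p in limma was 0.998 in the free wall and 0.992 in the septum. The values of this list lay on both sides of 0 in each region, and limma called 0 of 27 in both, with 3 lower in the free wall and 0 in the septum at an unadjusted p under 0.05.

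**Figure D4:**
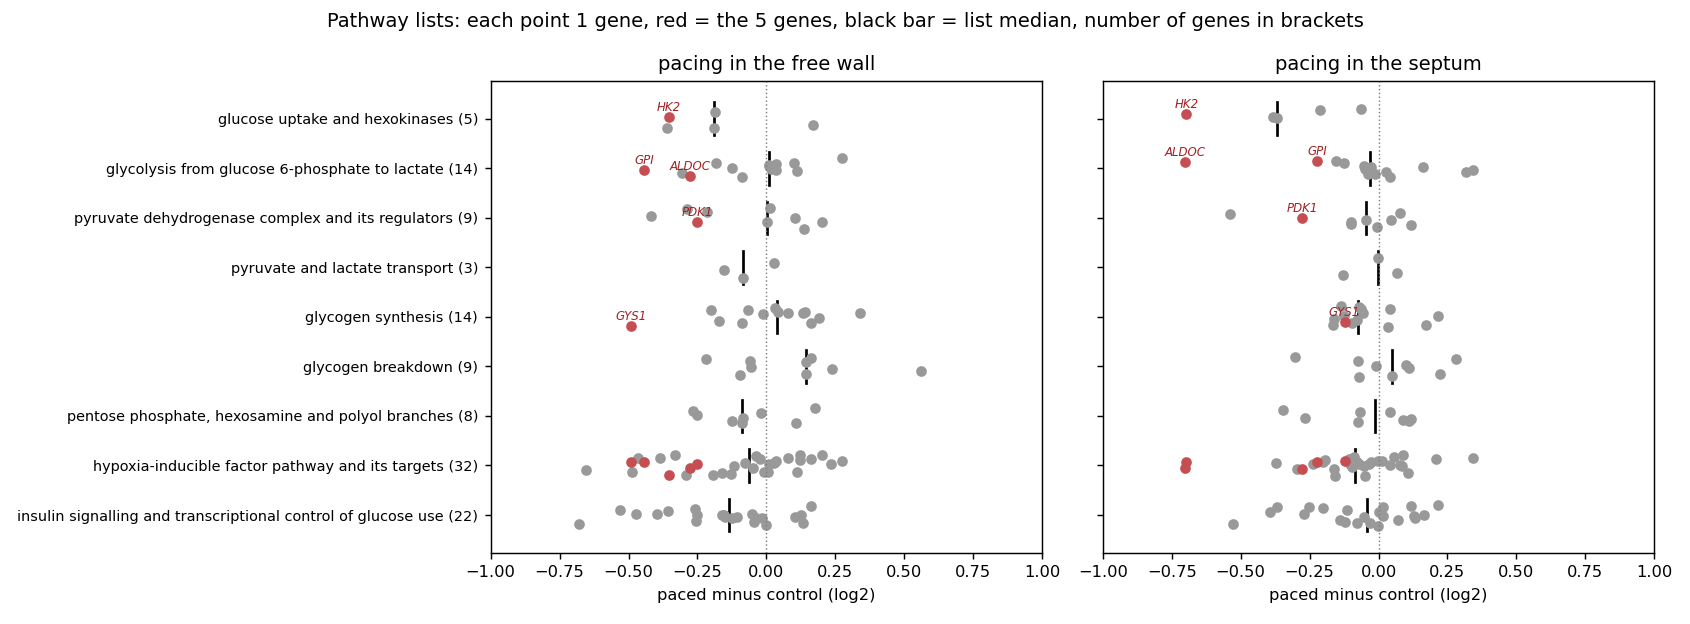
Paced minus control difference on the log2 scale (horizontal axis) for each tested gene of 9 pathway lists, in the free wall and in the septum. Red points are the 5 genes, grey points the other genes, black bars the list medians with the 5 genes included. In the free wall GPI and GYS1 are the lowest points of the glycolysis and glycogen synthesis lists, and in the septum HK2 and ALDOC are the lowest of the uptake and glycolysis lists. In the free wall SLC2A4 lies below HK2, PFKFB2 below ALDOC, and PDK3 and PDK4 below PDK1. In the septum PDK4 lies below PDK1, and PPP1R3F, PPP1R3A, PPP1R3D and UGP2 lie below GYS1. The 5 genes were picked for low values in these contrasts, so nothing is read from their rank.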

How the data were processed

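Total RNA of 12 left ventricular samples was hybridised to Affymetrix arrays, 1 array per sample. The deposited values are log2 signals that the authors obtained by RMA with the program Affymetrix Expression Console 1.4, according to the submitters' processing notes. RMA corrects background, normalises quantiles and summarises probes, which can shrink small differences. The array's build is not given in the sources used here. GEO's platform annotation named 1 symbol for 13323 probe sets, several for 357 and none for 13878. Of 249 genes in the lists, 177 were matched by symbol and 166 tested, each by its brightest probe set.

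The lowest 25% of probe sets by mean were left out. One mean per group was fitted over all 12 arrays with limma 3.58.1 in R 4.3.3 (lmFit, eBayes, two-sided, Benjamini-Hochberg over 20669 probe sets, called at an adjusted p under 0.05). The code was tested on simulated data. The number of arrays limits the precision. A likeness between genes was ranked by Pearson correlation over the 12 arrays. Up to 4 genes per list with the smallest p could be named. HK2, GPI, ALDOC, PDK1, GYS1 and the lists were chosen with earlier results of these data known.

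Whether arrays of 1 number belong together was checked by correlating their deviations from the group mean between regions. The correlation was 0.32, 0.25 and 0.24 for the control numbers, and 0.09, -0.17 and -0.18 for the paced numbers. Paced arrays of different numbers correlated more (free wall 1 with septum 2 at 0.42, 2 with 3 at 0.48 and 3 with 1 at 0.41). The numbers were therefore taken to pair arrays only between the control regions, and averages or blocks by number of paced arrays rest on a grouping the data do not bear out. Alternatives were other filters, 2 groups at a time, array weights, a robust trended prior, median centring, the number as a block and each array left out.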

Additional observations from a re-analysis of the deposited data

How the results depend on the processing

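The differences of HK2, GPI, ALDOC, PDK1 and GYS1 moved by less than the gene's pooled within-group SD under every alternative run. They moved by more than the smallest single group SD in places. ALDOC has no value under the filter that leaves out 50% of probe sets. The filters, the robust trended prior, 2 groups at a time and the block cannot change these differences. Leaving out 1 of 3 arrays shifts a group mean by only part of that group's SD, so nothing is read from this bound. With single arrays left out, HK2 in the septum (-0.70) ranged from -1.02 to -0.41 and PDK1 there (-0.28) from -0.46 to -0.12. GPI in the free wall (-0.44) stayed between -0.50 and -0.38. The sign of GYS1 in the septum turned (0.06) without septum control array 1, alone or with its free wall counterpart. Signs also turned between control regions for HK2 (down to -0.13), ALDOC (up to 0.14), PDK1 (up to 0.15) and GYS1 (down to -0.03), between paced regions for HK2 (up to 0.07) and PDK1 (up to 0.07), and in the difference of effects for PDK1 (up to 0.13). The counts of probe sets called were small and moved. For pacing in the free wall the count was 1 with all arrays, 0 with only the groups compared, 2 with array weights, 0 without both control arrays numbered 1 and 0 to 1 with single arrays left out. For pacing in the septum it was 2, and 1, 2, 4 and 1 to 4 in the same order. Between the regions of paced pigs it was 0, and 0 to 7 with single arrays left out, with 7 reached without septum paced array 2. With the regions averaged it was 1, and 0 to 1 with single arrays left out. With the number as a replicate block the counts were 0 for the free wall, 1 for the septum and 1 between the regions of paced pigs. For pacing in either region this block tied control and paced arrays of 1 number, which come from different pigs, so nothing is read from those counts. The block changed no difference of the 5 genes, and with 1 array per group and number it could not. The count between control regions, the only pairing the numbers bear out, stayed at 0. That fit also took its spread from the paced pairs, so the count does not rest on the control pairs alone. With 3 arrays per group, the paced minus control differences of the 5 genes in each region had SEs of 0.15 to 0.33. With all arrays, limma called none of these differences, and since these contrasts chose the genes, nothing is read from that.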
